A study of Homo sapiens with 4 samples.

Results

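The genes described here encode the histones H1, H2A, H2B, H3 and H4. They were chosen as protein-coding genes whose current symbol begins with H1-, H2AC, H2BC, H3C or H4C and continues with a number. In all, 74 genes met this rule, 70 of them had their current identifier among the 60725 genes of the count table, and 17 had at least 10 counts in at least 2 libraries and were thus among the 15356 genes tested. The 17 genes comprised 2 linker histone (H1), 4 H2A, 6 H2B, 2 H3 and 3 H4 genes. The other 53 genes in the table were too low to be tested, and H2AC18, H2AC19, H3C2 and H3C3 were not analysed here.

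RNA-seq was performed on RPE1, an hTERT-immortalized line of human retinal pigment epithelium, where hTERT is the catalytic subunit of telomerase, and the cells of both groups also carried the SunTag system. Both groups received 10 nM siRNA in 2 transfections 48 h apart, and RNA was collected on day 5, when 72 h had passed since the second. Control cells received Silencer Select Negative Control No. 2, and TOP2B knockdown cells received the Dharmacon ON-TARGETplus SMARTpool against DNA topoisomerase 2 beta (TOP2B), an enzyme that passes one DNA duplex through another. Each group had 2 biological replicates, and with 1 siRNA reagent per group the loss of TOP2B and any other action of its siRNA pool cannot be told apart.

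The library totals lay between 20310259 and 23887013 counts. TOP2B itself stood at 154.7 and 143.4 CPM (counts scaled to a common library total, with TMM normalization for library composition) in the control libraries and at 15.3 and 13.3 CPM in the knockdown libraries, or 9.58% of the control level. Of the markers of the line, KRT7, KRT8, KRT18, VIM and TERT were detected in all 4 libraries, as were OTX2 and MITF of the pigment epithelium. Of the other pigment epithelium markers, RPE65 and TYR had no counts in any library, BEST1 had 14 to 20, PMEL 7 to 31, and TYRP1, RLBP1 and LRAT at most 7. Among the markers of other cells, EPCAM had no counts, PECAM1 had 24 and 21 in the control and 11 and 5 in the knockdown libraries, and PTPRC, CDH5 and ALB had at most 7.

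Histones package DNA into nucleosomes, with H2A, H2B, H3 and H4 forming the core particle and H1 binding the linker DNA. Most of these genes lie in clusters on chromosomes 6 and 1 and are transcribed in S phase, when new DNA must be packaged. Their mRNAs usually end in a conserved stem-loop, bound by the stem-loop binding protein SLBP, instead of a poly(A) tail, although some of the genes can also make spliced or polyadenylated transcripts. The labels give the molecule as polyA RNA and the kit as TruSeq RNA, so that transcripts ending at the stem-loop may be poorly captured, and the values below describe the histone RNA that entered these libraries. In bulk RNA, fewer cells in a given state and less RNA per cell cannot be told apart.

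The stem-loop was searched for in the genome sequence (GRCh38) within 200 bases past each stop codon and was found in 69 of the 74 genes, starting 22 to 67 bases past the stop. Among the genes in which it was not found were H1-10 and H2BC12L. The elements of the genes on which the results turn are shown 5′ to 3′ in the sense of the mRNA, with the 16 bases of the stem-loop in capitals and 5 bases on either side. They lie in the 3′ region of single-exon genes on chromosome 6, except that H2BC11 also has spliced transcripts.
H2BC12 (chr6:27146361-27146386, minus strand): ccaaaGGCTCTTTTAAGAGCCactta
H2BC11 (chr6:27132316-27132341, minus strand): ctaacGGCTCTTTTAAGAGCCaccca
H4C9 (chr6:27139649-27139674, plus strand): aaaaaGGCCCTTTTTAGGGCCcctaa
H2AC11 (chr6:27133510-27133535, plus strand): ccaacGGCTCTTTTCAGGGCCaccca
H3C10 (chr6:27810511-27810536, plus strand): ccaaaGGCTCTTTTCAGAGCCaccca
The stem-loop of H3C10 was the most common, shared by 40 of the genes. That of H2BC12 was shared by 9 genes, H2BC11 among them, that of H4C9 by 4, and that of H2AC11 was found in this gene only.

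After TOP2B knockdown, H2BC12 and H4C9 rose, H2BC21, H2AC11 and H3C10 fell, and 12 of the 17 tested genes did not pass the test. A gene was called where the adjusted p of edgeR's quasi-likelihood test, corrected over all 15356 genes by Benjamini-Hochberg, was below 0.05. The 2 genes called higher were 11.8% of the tested histone genes, against 6.66% of all tested genes, and the 3 called lower were 17.6%, against 4.18%. The median log2 fold change of the 17 genes was -0.58, with 12 of them below 0, whereas the median over all tested genes was -0.0029. Without control replicate 2 the median of the 17 genes was -0.036 and without knockdown replicate 1 it was -0.32, and with no filter on counts, which adds the genes with few counts, the median of 44 histone genes was 0.14. Without adjustment, 9 of the 17 had a p below 0.05, against 26.3% of all tested genes.

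**Figure D1:**
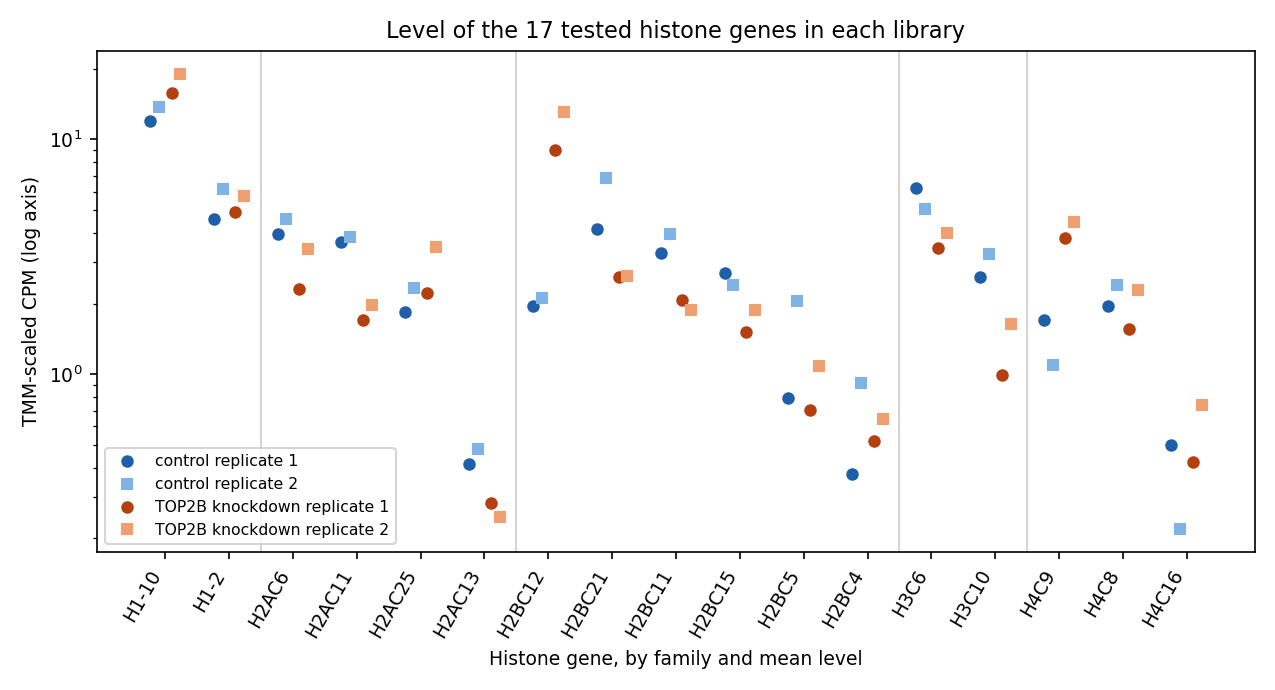
TMM-scaled CPM of the 17 tested histone genes (log axis), grouped by family and ordered by mean level, with 1 point for each of the 2 control and 2 TOP2B knockdown libraries. For H2BC12 both knockdown libraries (9.0 and 13.0 CPM) lie above both controls (1.96 and 2.10 CPM), and for H2AC11, H2BC21 and H3C10 both lie below.

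H2BC12, an H2B gene on chromosome 6 (chr6:27146361-27146855, minus strand, 1 exon), showed the largest change of the tested histone genes. The control libraries held 47 and 48 of its counts and the knockdown libraries 191 and 263, that is 1.96 and 2.10 CPM against 9.0 and 13.0 CPM. Both knockdown libraries thus stood far above both controls, which differed little from each other. The log2 fold change was 2.43 ± 0.24 (SE), or 5.41-fold, with an adjusted p of 0.000624 (edgeR). Only 52.9% of the 65-base windows of its exon are found nowhere else in the genome, and 39.0% also occur at H2BC12L, a gene on chromosome 21, so the count of H2BC12 is uncertain to that extent. The windows have the length of the single-end reads given in the methods, whereas the columns are tagged as paired-end, for which the share of unique placements was not computed. H2BC12L itself had 1, 1, 0 and 0 counts in control 1, control 2, knockdown 1 and knockdown 2. However, 0% of its own 65-base windows are unique in the genome, so these counts cannot show its level.

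H4C9, an H4 gene with 1 exon (chr6:27139282-27139678, plus strand), also rose. Its libraries held 41 and 25 counts in the control and 81 and 90 in the knockdown, or 1.71 and 1.10 CPM against 3.82 and 4.46 CPM. The groups did not overlap, with the lower knockdown library above the higher control library. The log2 fold change was 1.55 ± 0.28 (SE), or 2.93-fold, with an adjusted p of 0.0085 (edgeR). Its exon windows are unique in the genome. H2BC12 and H4C9 were called in each of the 4 fits that left out 1 library.

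H3C10, an H3 gene (chr6:27810051-27811300, plus strand, 1 exon), fell. Its counts were 62 and 74 in the control and 21 and 33 in the knockdown libraries, corresponding to 2.59 and 3.24 CPM against 0.99 and 1.63 CPM. The log2 fold change was -1.15 ± 0.31 (SE), which leaves 0.450 of the control level, with an adjusted p of 0.0448 (edgeR). This was the largest decrease among the tested histone genes and close to the threshold.

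H2BC21, an H2B gene of the cluster on chromosome 1 (chr1:149884459-149886682, minus strand), had 100 and 156 counts in the control libraries and 55 and 53 in the knockdown libraries. In CPM these were 4.17 and 6.84 against 2.59 and 2.63, so that the controls differed more from each other than the knockdown libraries did, without overlap between the groups. The log2 fold change was -1.07 ± 0.27 (SE), with an adjusted p of 0.0333 (edgeR).

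H2AC11, an H2A gene (chr6:27133043-27133535, plus strand, 1 exon), had 88 counts in both control libraries and 36 and 40 in the knockdown libraries. This was 3.67 and 3.86 CPM against 1.70 and 1.98 CPM, with a small difference within each group. The log2 fold change was -1.03 ± 0.24 (SE), with an adjusted p of 0.0255 (edgeR). Its neighbour H2BC11 (chr6:27125897-27132795, minus strand) lay just outside the threshold, with 79 and 90 against 44 and 38 counts, a log2 fold change of -0.87 ± 0.25 (SE) and an adjusted p of 0.0522. H2BC11 was called in edgeR with DESeq2 size factors (adjusted p 0.0476), with no filter on counts (0.0121) and without control replicate 1 (0.0417), and not by the Wald test of DESeq2 (0.141). The 3 decreases were less stable than the rises. Without control replicate 2 none of the 3 was called, with log2 fold changes of -0.68 for H2BC21, -0.996 for H2AC11 and -0.98 for H3C10, and without knockdown replicate 1 only H2BC21 was called. The Wald test of DESeq2 called H2BC21 only, with adjusted p of 0.0646 for H2AC11 and 0.0897 for H3C10.

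**Figure D2:**
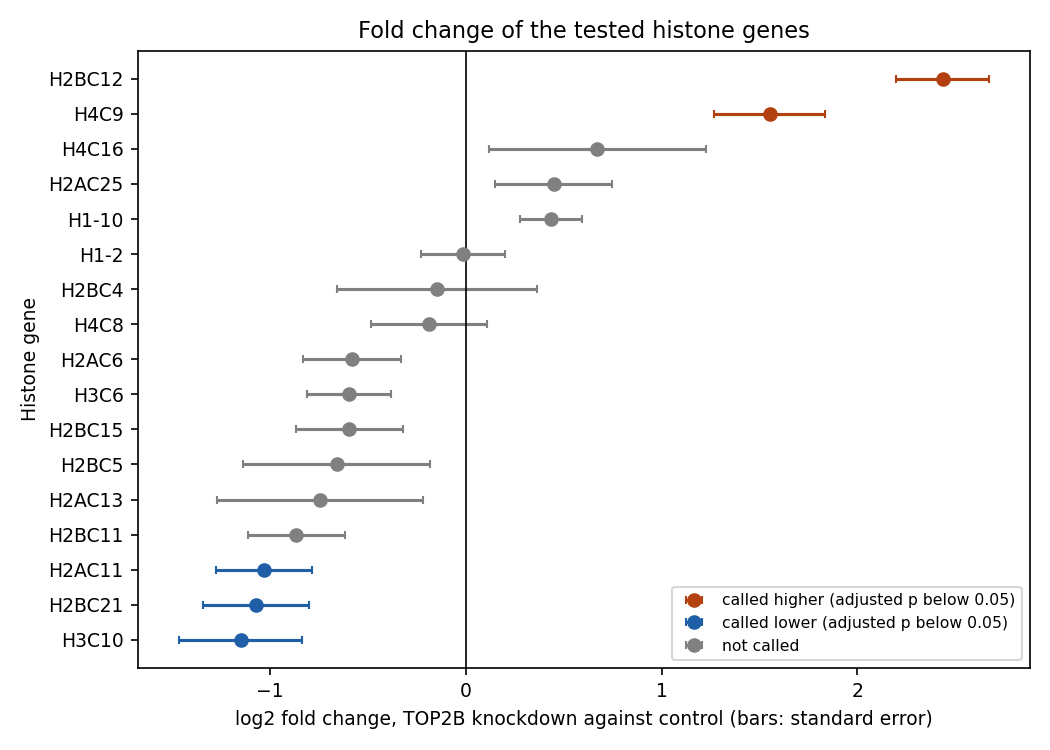
log2 fold change of the 17 tested histone genes, TOP2B knockdown against control, with bars for the standard error (2 libraries per group). H2BC12 (2.43) and H4C9 (1.55) stand apart at the upper end, and most other genes lie between 0 and -1.15.

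Of the 12 genes that were not called, 9 had a fold change below 0 and 3 above 0. In 8 of the 17 tested genes both knockdown libraries lay below both controls (26.6% of all tested genes), in 3 both lay above (27.7% of all tested genes), and in 6 the groups overlapped. H3C6 had 149 and 115 counts against 73 and 81, with a log2 fold change of -0.60 ± 0.21 (SE) and an adjusted p of 0.109. For H2AC6 the counts were 95 and 105 against 49 and 69, and the log2 fold change was -0.58 ± 0.25 (SE), with an adjusted p of 0.173. H2BC15, H2BC5 and H2AC13 lay between -0.60 and -0.74. H2AC13 rests on 5 to 11 counts per library, and 37.8% of its exon windows are unique. H2BC4 had 9 and 21 against 11 and 13 counts, with overlapping groups and a log2 fold change of -0.15 ± 0.51 (SE), and shares 30.9% of its exon bases with other genes.

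The tested linker histone genes did not pass the test. H1-10, a replication-independent H1 gene outside the clusters (chromosome 3), was the most abundant of all. It had 288 and 314 control counts, 334 and 385 knockdown counts, and its log2 fold change was 0.43 ± 0.16 (SE), with an adjusted p of 0.115. Its exon shares 22.8% of its bases with the antisense gene H1-10-AS1 (19, 18, 39 and 25 counts), and whether the counts separate the 2 strands is uncertain, since the columns are tagged as stranded and paired-end whereas the methods describe single-end reads. H1-2, a replication-dependent H1 gene, had 110 and 141 against 104 and 116 counts and the smallest fold change of all tested histone genes (log2 fold change -0.02 ± 0.22 SE, adjusted p 0.976).

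The other H4 and H2A genes gave values on either side of 0. H4C8 had 47 and 55 against 33 and 46 counts (log2 fold change -0.19 ± 0.30 SE), and H4C16, on chromosome 12, had the largest positive value among the genes not called with 12 and 5 against 9 and 15 counts (0.67 ± 0.55 SE). H2AC25, which encodes a variant H2A and lies on chromosome 1, had 44 and 53 against 47 and 70 counts (0.45 ± 0.30 SE). In H4C8, H4C16 and H2AC25 the groups overlapped.

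Per kb of exon, as annotated in GENCODE v44, the order of the genes changed between the groups. In the control, H1-10 (8.5 CPM per kb), H2AC11 (7.63) and H1-2 (7.36) were the most abundant, followed by H2BC12 (4.10) and H4C9 (3.53). In the knockdown, H2BC12 was first (22.3 CPM per kb), followed by H1-10 (11.5), H4C9 (10.4), H1-2 (7.28) and H2AC11 (3.73). The counts were made with an older annotation, whose exon lengths may differ.

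The level was summed over the histone genes with a stem-loop in the count table. H2AC18, H2AC19, H3C2 and H3C3 also have the stem-loop and were not included. The sum was 42.5 and 49.7 CPM in the control libraries and 40.3 and 51.7 CPM in the knockdown libraries. The 2 groups overlapped, and the difference of -0.108 CPM was smaller than the pooled SD of 6.73 CPM (two-sided exact permutation test, p = 1.0; 2 against 2 libraries cannot go below 0.33). H2BC12 and H4C9 were picked as the 2 genes called higher, so a rise in their share of this sum follows from that choice. H2BC12 and H4C9 together made up 8.63% and 6.43% of it in the control libraries and 31.8% and 33.8% in the knockdown libraries. H2BC12 alone went from 4.61% and 4.23% to 22.3% and 25.2%. Without both genes, the sum was 38.9 and 46.5 CPM against 27.5 and 34.2 CPM, a difference of -11.8 CPM with no overlap between the groups (exact permutation p = 0.33, the smallest possible). These 2 genes were left out after their values were seen.

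**Figure D3:**
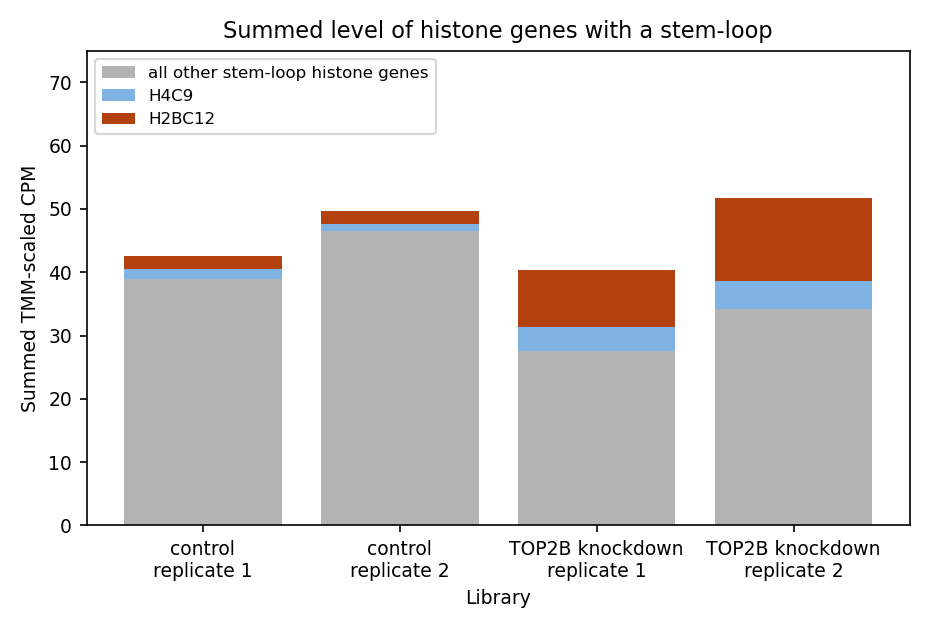
Summed TMM-scaled CPM, in each library, of the histone genes with a stem-loop in the count table, with H2BC12 and H4C9 separate from all others. The full bars overlap between the groups (42.5 and 49.7 against 40.3 and 51.7 CPM), whereas the grey portion is lower in both knockdown libraries (27.5 and 34.2 CPM) than in both controls (38.9 and 46.5 CPM).

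By family, the sums likewise left out H3C2 and H3C3 (H3) and H2AC18 and H2AC19 (H2A). The sum of the stem-loop H3 genes was 8.80 and 8.37 CPM in the control and 4.57 and 5.75 CPM in the knockdown libraries. The H2A genes gave 9.97 and 11.4 against 6.69 and 9.36 CPM, and the H4 genes 4.55 and 4.21 against 6.36 and 8.27 CPM. These 3 families did not overlap between the groups, with the knockdown lower for H3 and H2A and higher for H4, and each had the smallest possible exact permutation p of 0.33. Such separation is common with 2 against 2 libraries. Of all tested single genes, 26.6% had both knockdown libraries below both controls and 27.7% had both above. The H2B genes (14.4 and 19.4 against 17.7 and 22.3 CPM) and the stem-loop H1 genes (4.84 and 6.40 against 5.00 and 5.99 CPM) overlapped. Without H4C9 the H4 sum was 2.84 and 3.11 against 2.55 and 3.81 CPM, so that the groups overlapped. Without H2BC12 the H2B sum was 12.4 and 17.3 against 8.72 and 9.31 CPM, with both knockdown libraries below both controls. These last 2 sums were also added after the values were seen.

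The genes that rose and one that fell are close neighbours. On chromosome 6 the histone genes form 3 blocks. The block from H2BC11 to H2AC12 (chr6:27125897-27147562) holds 5 histone genes, of which 4 were tested, 2 were called higher and 1 lower. The start of H4C9 lies 7573 bases from that of H2BC12 and 6239 bases from that of H2AC11. In the block from H2AC1 to H4C8, 6 of 34 genes were tested and edgeR with condition as the only term called none, although H2AC6 and H3C6 had an unadjusted p below 0.05 (0.0435 and 0.0196). DESeq2 called none of the 5 to which it gave an adjusted p (all but H2BC4). Further along, in the block from H2BC13 to H2BC17, 3 of 16 genes were tested and 1 was called lower. Beside these small counts, the shares called over all tested genes were 6.66% higher and 4.18% lower. On either side of H2AC11, H4C9 and H2BC12, the nearest other tested genes were not called. ENSG00000272468, 9.8 to 23.1 kb away, had a log2 fold change of -0.92 ± 0.53 (SE) on 13, 13, 4 and 8 counts. ZNF204P, 211 to 225 kb away, had 0.34 ± 0.42 (SE).

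Several H2A and H2B genes lie head to head and share the DNA between their starts. There were 13 such divergent pairs of histone genes, with 170 to 319 bases between the starts. H2BC11 and H2AC11, 248 bases apart, both had lower values in the knockdown. For H2BC12 and its partner H2AC12, 251 bases apart, the counts of H2AC12 were 0, 0, 2 and 2, so the partner was too low to be compared. H2BC21 stood in the same position, with 0, 0, 1 and 0 counts for its partner H2AC20.

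Because H2BC12 and H2BC11 lie 14060 bases apart and differed in direction, the 250 bases before each start are shown, 5′ to 3′ on the minus strand (RefSeq, GRCh38.p14). Capitals mark 3 motifs on either strand, namely the octamer ATTTGCAT, known from H2B promoters as a binding site of OCT1 (POU2F1), the CCAAT box, and the sequence TATAAA.
H2BC12 (chr6:27146856-27147105, minus strand): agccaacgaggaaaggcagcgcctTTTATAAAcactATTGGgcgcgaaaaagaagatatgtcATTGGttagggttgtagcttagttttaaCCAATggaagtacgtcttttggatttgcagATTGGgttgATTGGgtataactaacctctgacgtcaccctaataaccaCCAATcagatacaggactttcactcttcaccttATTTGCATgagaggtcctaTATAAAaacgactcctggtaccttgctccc
H2BC11 (chr6:27132796-27133045, minus strand): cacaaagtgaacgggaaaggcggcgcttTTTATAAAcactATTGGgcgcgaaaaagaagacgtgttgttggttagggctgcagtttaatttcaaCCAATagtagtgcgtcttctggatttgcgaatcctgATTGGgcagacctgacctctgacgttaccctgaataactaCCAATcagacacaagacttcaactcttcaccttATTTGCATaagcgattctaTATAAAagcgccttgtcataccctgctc
In a global alignment the pair shared 203 of 256 aligned positions (79.3%). Each held 1 octamer, which began 49 bases before the start in H2BC12 and 47 in H2BC11, and 3 matches to TATAAA, of which a pair overlap, the nearest beginning 30 and 28 bases before the start. H2BC12 held 6 CCAAT boxes and H2BC11 held 4. Both stretches reach back to the start of the divergent partner, H2AC12 and H2AC11, so motifs in them may belong to either gene of a pair. H4C9 held 1 CCAAT box and neither of the other motifs, and H3C10 had no octamer. Promoter records were matched for 67 of the 74 genes. The octamer was present in 37.3% of these promoters, against 1.63% of 35116 promoters of the same length, CCAAT in 83.6% against 32.0%, and TATAAA in 65.7% against 10.7%. The octamer was found in 77.8% of the H2B and 68.8% of the H2A promoters and in none of the 9 H1, 11 H3 and 13 H4 promoters. In divergent pairs the same bases were searched for both genes, so 1 motif can count for an H2A and an H2B gene.

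The annotated 3′ ends differed among the genes. Of the 16 tested genes with a stem-loop, 11 had an annotated end more than 100 bases past it, and 9 of these 11 had fold changes below 0, with 2 called lower (H2BC21 and H3C10) and none called higher. The other 5 end within 100 bases of the stem-loop. Of these, 3 had fold changes below 0, H2BC12 and H4C9 were called higher and H2AC11 was called lower. For comparison, 6.66% of all tested genes were called higher and 4.18% lower. Among the 49 stem-loop genes in the table that were not tested, 6 had an annotated end more than 100 bases past the loop. H2BC12, whose annotated end in this version lies 5 bases past the loop, shares the 16-base stem-loop with H2BC11, whose longest annotated transcript continues 6424 bases past it.

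The 53 genes that were not tested had no counts in any library in 26 cases. The other 27 had at most 9 counts in a library, and all 53 together had 44 and 48 counts in the control and 56 and 55 in the knockdown libraries. A count of 0 allows a level of up to 0.125 to 0.149 CPM (3 counts; counting error only). All histone genes together took 0.00548% to 0.00705% of the counts of a library, and 7 of the 74 had no 65-base window of their own in the genome. As RNAs without a poly(A) tail, 21 small nuclear, signal recognition particle and similar RNAs were listed, of which 20 were in the table. They are not mRNAs, so their counts cannot show how histone mRNAs ending at the stem-loop were captured. Only RN7SL2 was tested, with 17, 21, 3 and 13 counts and a log2 fold change of -1.06 ± 0.58 (SE, adjusted p 0.283). Its level was 0.709 and 0.920 CPM in the control and 0.141 and 0.644 CPM in the knockdown libraries, and the part of RNA capture in the histone values was not tested. Without knockdown replicate 2, RN7SL2 was called lower.

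Among the genes that regulate histone genes and process their mRNA, SLBP, CCNE2 and CDK2 rose. Of 22 listed genes, all were tested, 3 were called, each of them higher, and the median log2 fold change was 0.15. Over all tested genes, 6.66% were called higher and 4.18% lower. SLBP, which binds the stem-loop, rose from 41.6 and 44.7 CPM to 59.3 and 70.7 CPM (log2 fold change 0.59 ± 0.13 SE, adjusted p 0.0190, edgeR). CCNE2, a cyclin E gene, rose by 1.11 ± 0.16 and CDK2, the kinase that cyclin E activates, by 0.60 ± 0.12 on the log2 scale (SE). SLBP and CDK2 were not called without control replicate 1 or without knockdown replicate 2. NPAT, the coactivator of histone genes that is a substrate of this kinase, had 35.8 and 26.0 against 44.8 and 41.4 CPM, with a log2 fold change of 0.48 ± 0.16 (SE) and an adjusted p of 0.0852, and it was called without control replicate 1 (0.73 on the log2 scale).

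The histone variants listed as replication-independent, most of which are made from polyadenylated mRNA, differed widely in level. H3-3B and H2AZ1 averaged 281.7 and 219.8 CPM in the control, far above H1-10 (12.9 CPM), the most abundant tested histone gene. In contrast, MACROH2A2 and H2AJ averaged 4.84 and 4.88 CPM, below H2BC21 (5.50 CPM). H3-5, H3-4, H2BW1 and H2AB1 had at most 1 count in a library. Of 15 listed, 13 were in the table under the listed symbol, 9 were tested and only H2AZ2 was called, with 166.5 and 170.0 CPM in the control and 239.6 and 247.9 CPM in the knockdown libraries (log2 fold change 0.53 ± 0.12 SE, adjusted p 0.0232). H2AZ2 was not called in any fit that left out 1 library. H2AX (0.11 ± 0.13 SE) and H3-3B (0.05 ± 0.16 SE) were not called, and the median of the 9 was 0.23. The share called among all tested genes was 6.66% higher and 4.18% lower.

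Histone chaperones, which carry histones to and from DNA, included genes that rose and a single gene that fell. Of 22 genes, all were tested, 5 were called higher, 1 was called lower, and the median log2 fold change was 0.19. Among all tested genes, 6.66% were called higher and 4.18% lower. The genes that rose were TONSL, which binds new H4 behind forks (1.19 ± 0.13), CHAF1B (0.76 ± 0.13) and CHAF1A (0.63 ± 0.13) of the replication-coupled assembly factor CAF-1, ASF1B (0.53 ± 0.13), and HJURP, the chaperone of the centromeric H3 variant (0.46 ± 0.12; log2 fold changes with SE). ASF1A, the paralog of ASF1B, fell from 25.1 and 28.5 CPM to 16.4 and 18.7 CPM (log2 fold change -0.61 ± 0.14 SE, adjusted p 0.0230). Without control replicate 1 the count of called chaperones was 3, and HJURP was not called in any fit that left out 1 library. ASF1A was not called without control replicate 2 (adjusted p 0.102) or without knockdown replicate 1 (adjusted p 0.112).

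The S phase genes, listed because histone genes are transcribed in this phase, were higher in the knockdown. All 26 were tested, 21 were called higher (against 6.66% of all tested genes), and all 26 had values above 0, with a median log2 fold change of 0.68. CDC45, a part of the replicative helicase, rose from 11.6 and 12.4 CPM to 26.2 and 25.4 CPM (log2 fold change 1.11 ± 0.14 SE), and MCM6, another helicase subunit, from 38.2 and 38.9 CPM to 74.4 and 78.2 CPM (0.98 ± 0.12 SE). PCNA, the sliding clamp, rose by 0.68 ± 0.13 on the log2 scale (SE). Also called were MCM2, MCM3, MCM4, MCM5, MCM7, MCM10, RRM2, TYMS, E2F1, GINS2, UHRF1, DTL, POLA1, POLD3, CLSPN, TK1 and CDT1, with log2 fold changes between 0.52 (RRM2) and 0.82 (UHRF1). Without control replicate 1 or without knockdown replicate 2, 16 of the 26 were called, and RRM2 was not called in any fit that left out 1 library. The 5 genes not called were RRM1, CDC6, GINS1, FEN1 and RPA2. The medians of the S phase list (0.68) and of the histone genes (-0.58) thus lay on opposite sides of 0 in the main fit. Across the alternatives the histone median ran from -0.67 (without knockdown replicate 2) to 0.21 (mean of at least 100 counts). It was also above 0 with no filter on counts (0.14). The part of S phase in the histone values was not tested.

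**Figure D4:**
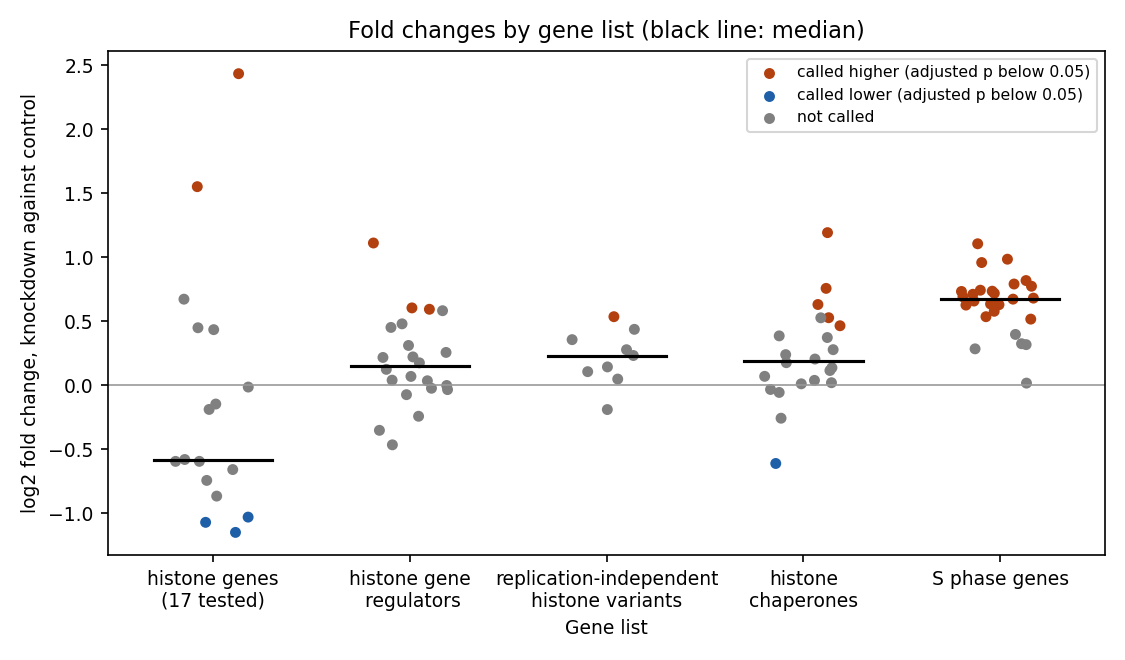
log2 fold change (TOP2B knockdown against control) of each tested gene, 1 point per gene, for the 17 histone genes and 4 lists, with a black line at each median. The S phase genes all lie above 0 (median 0.68), while the histone genes spread from -1.15 to 2.43 around a median of -0.58.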

How the data were processed

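The authors checked reads with FastQC 0.11.6, aligned them to GRCh38 with STAR 2.5.4a and deposited raw counts per gene (Gencode v24), as whole numbers without normalization. The deposited column names carry a stranded, paired-end tag, whereas the methods give single-end reads. The strand column taken from STAR, and how reads matching several genes were treated, are not given in the sources used here. The 4 further columns of the table repeat the first 4 with identical values and were not used. The deposited counts were tested in edgeR 4.0.16 (R 4.3.3; glmQLFit and glmQLFTest, TMM, condition as the only term, common dispersion 0.0117, 2 residual degrees of freedom), for genes that reached 10 counts in 2 or more libraries, with Benjamini-Hochberg adjustment over all tested genes. The SE of a log2 fold change was its absolute value divided by the square root of the F statistic of its test. CPM used the column totals. The totals were 20310259 to 23887013 counts, so that 1 CPM corresponds to 20.2 to 24.0 counts. Positions, exons and symbols came from GENCODE v44. Its exon sequences were searched for 65-base windows found once in GRCh38 (pysam 0.24.0). Promoters came from RefSeq records.

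The genes named were every histone gene called, the 3 most abundant tested genes of each family, H1-10, the extremes among those not called, the called genes of the other lists, and TOP2B, NPAT and SLBP. The genes and lists were chosen with earlier results of these data known. Replicates are biological, by the study's methods. The alternatives were DESeq2 size factors, library size alone, no filter on counts, a mean of at least 100 counts, the replicate number as a block, each library left out, and the Wald test of DESeq2 1.42.0. Leaving out 1 library leaves a lone sample whose spread is taken from the other group. Scripts were tested on simulated data. Some items covered by these rules are not reported here.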

Additional observations from a re-analysis of the deposited data

How the results depend on the processing

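H2BC12 and H4C9 were called under every alternative that tested them, including the fits without each library; H4C9 was not tested at a mean of at least 100 counts. The lower calls ranged from 0 (without control replicate 2) to 4 (without control replicate 1) when 1 library was left out, and the fold change medians from -0.67 to -0.036. In the same fits the called genes ranged from 0 to 0 for the replication-independent variants, from 3 to 4 for the chaperones and from 0 to 1 for the RNAs without a poly(A) tail. With a mean of at least 100 counts, only 4 histone genes were tested, with 1 called higher, 0 lower and a median of 0.21. In that fit 1272 of 10893 genes were called in all. With no filter on counts, the median of 44 histone genes was 0.14, and 6 regulators, 2 variants and 2343 of 29440 genes in all were called. The Wald test of DESeq2 gave 1 lower histone gene and 2 variants, with 1562 genes called in all. With the replicate number as a block, 7 histone genes were called lower (H2BC11, H2AC6, H3C6 and H2BC15 beside the 3 decreases) and H1-10 was called higher in addition, with 14 regulators, 5 variants and 15 chaperones, and 6786 genes in all against 1665. The deviations of the same-numbered libraries correlated at 0.479, but with only 2 pairs the libraries share only a number. The summed CPM difference became -11.8 without H2BC12 and H4C9 and -9.09 without H2BC12, both chosen after seeing the data. With 1 library left out, the log2 fold change changed sign for H1-2 (-0.22 to 0.21), H2BC4 (-0.66 to 0.62), H2BC5 (-1.20 to 0.18) and H4C8 (-0.50 to 0.066), none of them called. The causes were not tested. The genes with few counts had wide errors, such as an SE of 0.52 for H2AC13.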
